A study of Rattus norvegicus with 2 samples.

Results

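Genes for the proteins of the cytosolic ribosome were compared between regenerating rat livers after a smaller and a larger resection. The members were the genes whose platform symbol reads Rpl or Rps followed by a number, with the usual suffixes, or Rplp0 to Rplp2, and the Rps6k kinases were left out. The rule found 47 genes among the 14217 genes that had a probe set under 1 symbol, and each was read from its probe set with the highest mean signal. Of the 47, 29 encode proteins of the large (60S) subunit, 12 encode proteins of the small (40S) subunit, and 6 are paralogs, second genes that resemble a core member.

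Partial hepatectomy (PH) removes part of the liver, and the rest regrows. Rats of one group lost the smaller part (1/3PH) and rats of the other the larger part (2/3PH), and the remnant liver was taken at 24 h in both. According to the series' design text, 6 rats were operated on and the RNA of 3 was pooled per group, so there were 2 arrays and no replicate. The comparison set a resection known for strong DNA synthesis against one known for little. DNA synthesis itself was not measured on these arrays. The labels give no strain, sex or age, and neither an unoperated nor a sham-operated liver was measured. With 1 array per group no difference has a replicate check and no test was made, so "higher" and "lower" describe these 2 pools only.

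The ribosome makes all proteins of the cell. Its small subunit reads the messenger RNA, and its large subunit joins amino acids and leads the new chain out through a tunnel. A growing cell has to make ribosomal proteins in equal numbers along with ribosomal RNA, and much of the control lies in translation. Messenger RNAs of vertebrate ribosomal proteins begin with a 5' terminal oligopyrimidine tract (5' TOP), a C followed by other pyrimidines. The growth kinase complex mTORC1 and the RNA-binding protein Larp1 control the translation of such RNAs. An array measures how much RNA is present and not how much of it is translated.

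The sequences around the annotated gene starts are shown because many core members, and fewer paralogs, hold a pyrimidine run there, which the choice by symbol did not use. Each window has 30 bases, 10 before the start and 20 from it on, read 5' to 3' from RefSeq promoters of build GRCr8. Capitals mark a run of at least 6 pyrimidines (C or T) that opens with C and reaches to within 10 bases of the start; in Rpl34 the run opens before the window. The first 7 genes are bright core members with such a run, the next 2 are bright core members without one, and the last 3 are paralogs.
Rps23, chr2:23814507-23814536, plus strand: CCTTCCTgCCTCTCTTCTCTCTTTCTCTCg
Rps15, chr7:10068096-10068125, minus strand: acaccgCTTCCTTTTCCCagcagccgccaa
Rps24, chr16:96507-96536, plus strand: ggtCCTCTTTTCCTCCTTTacagctcgggc
Rpl19, chr10:83519054-83519083, plus strand: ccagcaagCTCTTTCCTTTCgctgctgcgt
Rpl27a, chr1:172974563-172974592, plus strand: cttggtgggCTCCTCCCTCTTTCTTTTCTg
Rpl34, chr2:221962264-221962293, minus strand: TCCTTTTCCTCTTCCggggacggtgcttag
Rplp0, chr12:46718371-46718400, minus strand: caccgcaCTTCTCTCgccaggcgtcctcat
Rpl26, chr10:54109682-54109711, plus strand: gtcaacttacagaaccggaagtcgcatgta
Rps16, chr1:92770648-92770677, plus strand: aaaatcggtcggggtggccccaagctttcc
Rps27l, chr8:76443648-76443677, plus strand: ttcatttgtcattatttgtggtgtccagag
Rpl7l1, chr9:21695708-21695737, plus strand: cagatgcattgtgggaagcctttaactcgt
Rps4y2, chr4:183000903-183000932, plus strand: cagCTCTCCTCactcgcttgtgctctggga

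The pyrimidine run was frequent among the core members. A RefSeq promoter matched 42 of the 47 members. Of these, 28 (66.7%) had the run on the strand that reads like the RNA, against 7239 of all 33469 promoters (21.6%). On the opposite strand 4 of the 42 members (9.52%) had a run of the same kind, against 24.9% of all promoters. Of the 6 paralogs, 1 had it, Rps4y2. Rpl26 and Rps16 had no run that reaches to within 10 bases of the annotated start. The Rps16 window does end in 6 pyrimidines that open with C, but they begin too far past the start to count. Annotated starts can differ from the start used in liver, and the search rule was written after the sequences had been seen.

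Nearly all core members lay among the strongest signals of the arrays. A floor was set at the median signal of all probe sets, 89.2, and 42 members and 9514 genes in all reached it. Of the 42, 37 lay among the brightest 10% of those genes, above a mean signal of 4412, and all 37 were core members. Their signals ran from 11827 to 36926 after 1/3PH, with a median of 18693. After 2/3PH they ran from 14197 to 34840, with a median of 20985. The strongest signal of any gene was 51255 after 1/3PH and 45512 in the larger resection. Brightness depends on the probes as well as on the RNA, so it gives no order of abundance between genes.

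Ribosomal protein RNAs were slightly higher after 2/3PH, and by similar amounts. Of the 42 members above the floor, 39 had a log2 ratio (2/3PH minus 1/3PH) above 0 and 3 below it, while 52.9% of all genes above the floor were above 0. The median log2 ratio of the members was 0.17, or 1.13-fold, against 0.03 over all genes. Of the 42, Rps4y2 alone was past 2-fold upwards, where 6.12% of all genes were, and no member was past it downwards, where 3.68% were. At a limit of 1.5-fold, 3 members (Rps4y2, Rpl39 and Rpl7l1) lay above and 0 below, against 15.8% and 12.0% of all genes. The members' ratios had an SD of 0.21, that of all genes was 0.66, and probe sets of 1 gene differed from each other with an SD of 0.33. The shift of a single member was therefore mostly smaller than the disagreement between probe sets of 1 gene. Both SDs set beside the members come from genes at all signal levels above the floor, most of them weaker than the members.

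**Figure D1:**
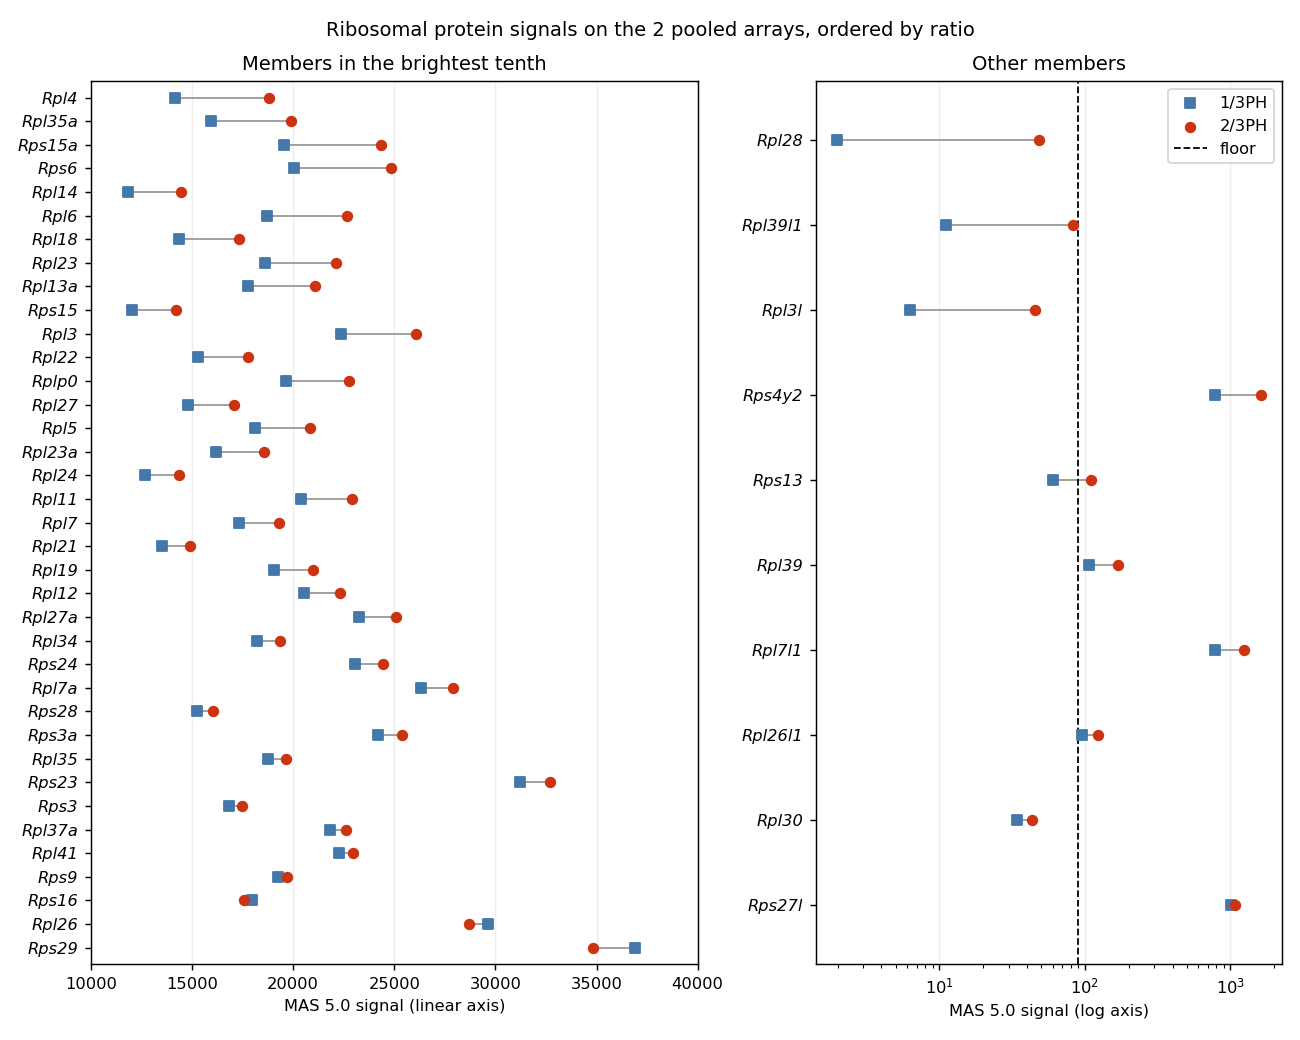
MAS 5.0 signal of each of the 47 members after 1/3PH (blue squares) and 2/3PH (red circles), ordered by ratio. The left panel has the 37 members among the brightest 10% of genes on a linear axis that does not start at 0, and the right panel the other 10 on a log axis with the floor at 89.2; in the left panel 34 members have the red circle to the right.

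Genes with equally strong signals lay lower than the members. The 37 bright members had a median log2 ratio of 0.15, and 34 of them were above 0. The 211 other genes at least as bright as the dimmest of the 37 had a median of -0.25, and 44 of them (20.9%) were above 0. The SD of the ratios was 0.11 in the 37 and 0.40 in the 211. The medians differed by 0.40 on the log2 scale. That difference ranged from 0.31 to 0.40 over the scalings and probe set choices tried. The direction of the other bright genes was less stable, since their median was -0.05 with quantile normalization and with loess, -0.02 with hybridisation controls and 0.19 with poly-A controls. All 9 measured hepatocyte markers were lower after 2/3PH as deposited, with a median of -0.18 and summed signals of 306438 and 259452, but that median was above 0 with quantile normalization (0.02), loess (0.03) and both spike-in scalings (0.05 and 0.26). In whole liver, fewer cells of a type and less RNA per cell cannot be told apart.

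**Figure D2:**
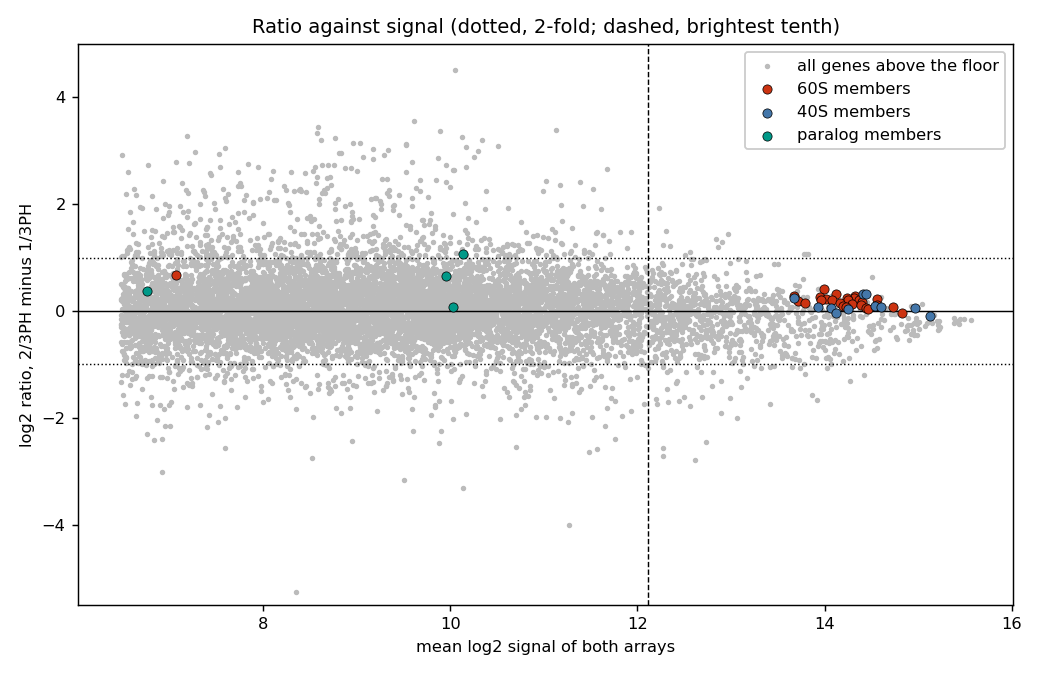
Log2 ratio (2/3PH minus 1/3PH) against the mean log2 signal of both arrays for the 9514 genes above the floor (grey), with 60S (red), 40S (blue) and paralog (green) members. The 37 bright members lie together at the right, at ratios from -0.08 to 0.41, while 167 of the 211 other genes at that brightness lie below 0.

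The direction of the members' median did not depend on how the arrays were scaled, but its size did. It was 0.17 as deposited, 0.12 with median centring, 0.33 with quantile normalization and 0.34 with the trend on signal removed by loess. Scaling to the hybridisation controls gave 0.41 and scaling to the poly-A controls 0.62. These spike-in scalings moved the median of all genes by 0.24 and 0.44, so relative to all genes the members stood at 0.14 in both, as on the deposited scale. They also moved the split of all genes at 2-fold from 582 higher and 350 lower to 973 and 210, or to 1599 and 123. The 18 hybridisation controls all had lower signals on the 2/3PH array, as had 23 of the 24 poly-A controls, and which scaling is nearest to RNA per cell was not tested.

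**Figure D3:**
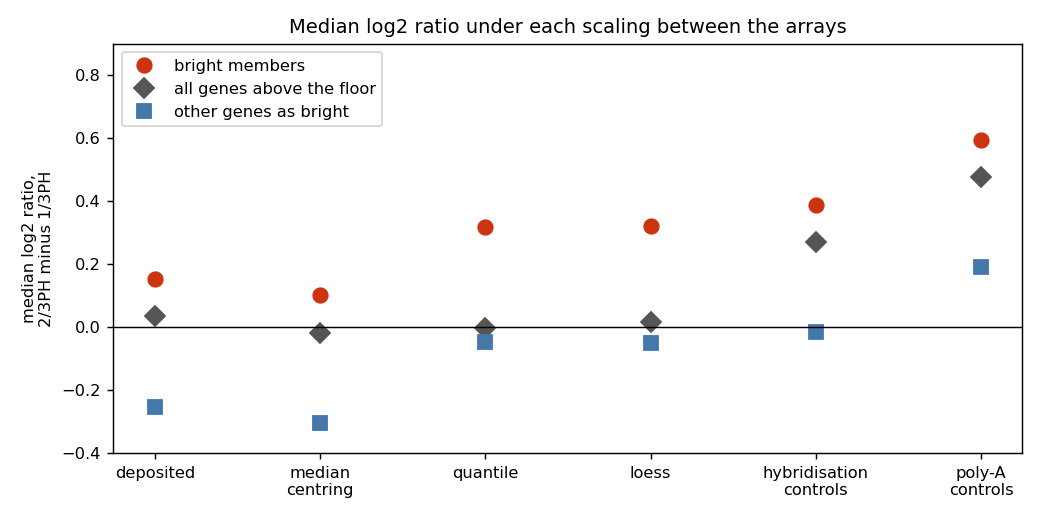
Median log2 ratio (2/3PH minus 1/3PH) of the 37 bright members (red circles), all genes above the floor (grey diamonds) and other genes as bright (blue squares) under 6 scalings between the arrays. The red circle is above the other symbols and above 0 in each scaling, from 0.10 with median centring to 0.60 with poly-A controls.

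Large subunit members had the higher ratios. The 27 core 60S genes above the floor had a median log2 ratio of 0.20, and 26 of them were above 0. The 11 core 40S genes had a median of 0.07, with 9 above 0. A further 36 ribosomal protein probe sets with several symbols did not enter these medians, which describe the named genes and not the whole subunits. The ranges overlapped widely, from -0.04 to 0.67 for the 60S genes and from -0.08 to 0.32 for the 40S genes, and the difference between the subunits was not tested. The 60S and 40S medians were 0.15 and 0.02 with median centring and 0.64 and 0.51 with poly-A scaling. Median centring and both spike-in scalings shift every ratio by the same amount, so they cannot change the difference between the subunits. Quantile normalization and loess can change it, and the medians lay somewhat closer there, at 0.35 against 0.24 and 0.36 against 0.26.

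In the large subunit, Rpl4, which lines the exit tunnel, had the highest ratio of the 37 bright members. Its signal was 14151 after 1/3PH and 18816 after 2/3PH, 1.33-fold higher. Rpl35a, mutated in some cases of Diamond-Blackfan anaemia, followed with 15941 and 19901, 1.25-fold. Rpl14 had signals of 11827 and 14451, and Rpl6 18693 and 22654, both about 1.2-fold higher. These 4 genes stood at the upper end, and most other 60S genes lay close to the family's median. Rpl18 (log2 ratio 0.27), Rpl23 (0.25) and Rpl13a (0.25) lay just under them, followed by Rpl3 at 0.22, which reaches towards the peptidyl transferase centre, Rpl22 at 0.22 and Rpl27 at 0.21.

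The 5S particle joins the large subunit as a unit of 5S RNA with Rpl5 and Rpl11, and free Rpl5 and Rpl11 bind the p53 ligase Mdm2. Rpl5 had signals of 18134 and 20849, and Rpl11 of 20387 and 22896. The pair differed by little, at log2 ratios of 0.20 and 0.17. Of 14 proteins listed as Mdm2 binders, 7 were measured, and their median log2 ratio was 0.17.

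The stalk recruits elongation factors to the ribosome. Rplp0, its base, had signals of 19629 and 22764, and its log2 ratio was 0.21. Rpl12, which sits beside Rplp0, had 20515 and 22316, a log2 ratio of 0.12. Rplp1 and Rplp2 had no probe set under a single symbol.

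Around the tunnel exit, where the chain leaves the ribosome, 7 of 9 listed genes were measured, with a median of 0.20. Rpl23a, a docking site for the signal recognition particle, stood at 0.20, Rpl19 at 0.14 and Rpl35 at 0.07. Rpl26 was one of the 3 members below 0, with 29610 after 1/3PH and 28702 after 2/3PH. Its log2 ratio of -0.04 was positive under quantile, loess and both spike-in scalings. Rpl39, a small tunnel protein, had a weak probe set at 106.3 and 169.4. It was 1.59-fold higher, and no other core member above the floor passed 1.5-fold.

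At the lower end of the large subunit, Rpl41, the smallest ribosomal protein, had signals of 22255 and 22972, and Rpl37a 21829 and 22600. Their log2 ratios of 0.05 were just below 0 with median centring. Rpl7a stood at 0.08, Rpl34 at 0.09, Rpl27a at 0.11, Rpl21 at 0.14, Rpl7 at 0.15 and Rpl24 at 0.18. With these, each of the 27 core 60S genes above the floor has been given.

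In the small subunit, Rps15a and Rps6 had the highest ratios. Rps15a had signals of 19560 after 1/3PH and 24344 after 2/3PH. Rps6, which S6 kinases phosphorylate downstream of mTORC1, had 20059 and 24860. Both were 1.24-fold higher, and Rps15, which lies in the subunit's head, followed at 1.18-fold, with 12047 and 14197. The other 8 core 40S genes lay lower, between log2 ratios of -0.08 and 0.08.

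The lowest ratio of all members was that of Rps29, a zinc-binding protein of the head. Its signal was 36926 after the smaller resection and 34840 after the larger, so its log2 ratio was -0.08. Rps16, also of the head, had 17960 and 17563, a log2 ratio of -0.03. Both ratios were positive under quantile, loess and both spike-in scalings. Of 14 listed head proteins, 5 were measured, with a median of 0.05, and the remaining pair in it were Rps28 (0.07) and Rps3 (0.05), the latter at the messenger RNA entry, with 16852 and 17485.

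Rps23 and Rps9, which act in decoding, were nearly level between the arrays. Rps23 had signals of 31240 and 32688, and Rps9 19239 and 19713, log2 ratios of 0.07 and 0.04. Rps3a, on the platform of the subunit, stood at 24179 and 25406, a ratio of 0.07, and Rps24 at 0.08. The ratio of Rps9 was below 0 with median centring.

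Among the bright members, those with stronger signals had smaller ratios. Pearson's r between ratio and mean log2 signal was -0.48 and Spearman's rho -0.38 over 37 genes that share the same 2 arrays, given as a description. The brighter 19 had a median ratio of 0.11 and the dimmer 18 one of 0.20. The 211 other genes as bright showed no such step, with medians of -0.24 in the brighter 106 and -0.25 in the dimmer 105. The 25 bright members with the pyrimidine run had a median ratio of 0.14 (0.04 to 0.41), and the 8 with a promoter but no run had one of 0.17 (-0.04 to 0.28), so the ranges overlapped.

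The paralogs varied more than the core members, but at far weaker signals than most of them. Some core genes read at weak signals also had large log2 ratios. Rpl39 stood at 0.67, and the weaker probe sets of Rpl3 and Rps24 at 0.66 and 0.80, while that of Rpl7 stood at 0.19. A difference between paralogs and core genes at equal signal was not tested. Rps4y2, a relative of Rps4x, had signals of 780 after 1/3PH and 1627 after 2/3PH. It was 2.09-fold higher, the largest difference of any member above the floor. Rpl7l1, which acts in assembly of the large subunit in the nucleolus, had 788 and 1246, 1.58-fold higher. Its second probe set gave the same picture, with log2 ratios of 0.66 and 0.70. Rps27l, a p53 target related to Rps27, had 1016 and 1072, a log2 ratio of 0.08. Rpl26l1, a close copy of Rpl26, had 95.0 and 123.8, just above the floor, a ratio of 0.38. Probes of a paralog can also bind RNA of its core relative, and the part of this in the signals was not tested.

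The 5 members below the floor carry little information. Rpl3l, known from striated muscle, had signals of 6.25 and 45.4, and Rpl39l1, the platform's name for a relative of Rpl39, 11.2 and 83.4. Rpl28 had 1.97 and 48.7, and Rpl30 34.3 and 43.0. All 8 of these signals lay under the floor, so no fold is given. Rps13 had 60.02 and 109.7, which is at least 1.23-fold higher when the lower signal is set to the floor. For 3 of the 5 genes the platform also lists their symbol on other probe sets, together with symbols of copies or pseudogenes, and those were not used to name a gene.

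Of the members, 5 had several probe sets, and both probe sets of each gene had a ratio above 0. Rpl7 gave 0.15 and 0.19. For Rpl3 and Rps24 the weaker probe set had the larger ratio, at 0.66 beside 0.22 for Rpl3 and at 0.80 beside 0.08 for Rps24. The weaker Rpl14 probe set lay under the floor.

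Genes that assemble ribosomes had larger ratios than most of the proteins they assemble, but at much weaker signals. Rpf2, for example, had signals of 351 and 980, where Rpl5 had 18134 and 20849. How much of the gap goes with signal level was not tested, and this holds for each pair compared below. The ribosome biogenesis list had 52 genes above the floor, and their median log2 ratio was 0.85. Of these, 20 lay past 2-fold upwards and 0 downwards, against 6.12% and 3.68% of all genes, and the counts of the lists that follow are to be read against the same shares. Rrp1b stood 3.41-fold higher, the box C/D proteins Nop58 and Nop56 at 3.24-fold and 2.94-fold, and the helicase Ddx21 at 2.79-fold, although the dimmest probe set of Ddx21 had a log2 ratio of -0.012. Of 18 chaperones of ribosomal proteins and late maturation factors, 16 were above 0, with a median of 0.55, and 3 were 2-fold higher. These were Mrto4, Rpf2 and Rrs1, and Rrs1 is also in the biogenesis list. Mrto4, which prepares the site of the stalk, had signals of 536 after 1/3PH and 1555 after 2/3PH. Rpf2 and Rrs1, which bring in the 5S particle, were 2.79-fold and 2.40-fold higher, beside 1.15-fold and 1.12-fold for its proteins Rpl5 and Rpl11. Heatr3, which helps to bring Rpl5 into the nucleus, was 1.82-fold higher. Bccip, the chaperone of Rpl23, was 1.74-fold higher beside 1.19-fold for Rpl23, and Grwd1, the chaperone of Rpl3, was 1.65-fold higher beside 1.16-fold for Rpl3.

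Other RNAs with a 5' TOP lay between these groups. Of 16 measured, 14 were above 0 and Nap1l1 (2.10-fold) was the only one past 2-fold, with a median log2 ratio of 0.42. Cct2, a chaperonin subunit, was 1.71-fold higher, Eef1d, of the elongation factor exchange complex, 1.504-fold and Eif4b 1.44-fold. Eef1a1, which delivers transfer RNA, was nearly level, with signals of 22595 and 21756, and so was Eif4a2 at a ratio of -0.08. Both of these were above 0 under quantile, loess and the spike-in scalings. Rack1 and Rpsa, ribosome components that the symbol rule does not take, were 1.38-fold and 1.22-fold higher, and both are also in the list of 5' TOP RNAs.

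Mitochondrial ribosomal proteins were also higher by small amounts. Of 73 above the floor, 67 were above 0, against 52.9% of all genes, with a median of 0.30. The 3 past 2-fold upwards are no larger a share than the 6.12% of all genes. These were Mrpl12, Mrps6 and Mrps27, at 2.15-fold, 2.12-fold and 2.04-fold, although the dimmest probe set of Mrps27 had a log2 ratio of -1.56. Of 41 translation initiation factors, among them Eif4b and others of the 5' TOP list, 37 were above 0, with a median of 0.48, and Eif2s1, a subunit of the factor that brings the initiator transfer RNA, was 2.26-fold higher. The helicase Eif4a1 was 1.85-fold higher.

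Genes that control the translation of 5' TOP RNAs, among them Mtor and its inhibitor Deptor, showed no common direction. The list mixes genes of opposite action, so its sign count and median do not describe mTORC1 activity. Of 15 above the floor, 8 had ratios above 0 and 7 below as deposited, and 13 were above 0 with poly-A scaling. Their median of 0.03 turned negative with median centring, quantile normalization, loess and the mean over probe sets. The mTOR inhibitor Deptor was 2.48-fold lower, from 2564 after 1/3PH to 1035 after 2/3PH, and Eif4ebp3, a repressor of cap-dependent initiation, was 1.99-fold lower. Akt1 was 1.43-fold higher and Tsc1 1.31-fold lower, the latter at a log2 ratio of 0.05 with poly-A scaling. Larp1 had signals of 2328 and 2970, and Mtor 794 and 934.

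**Figure D4:**
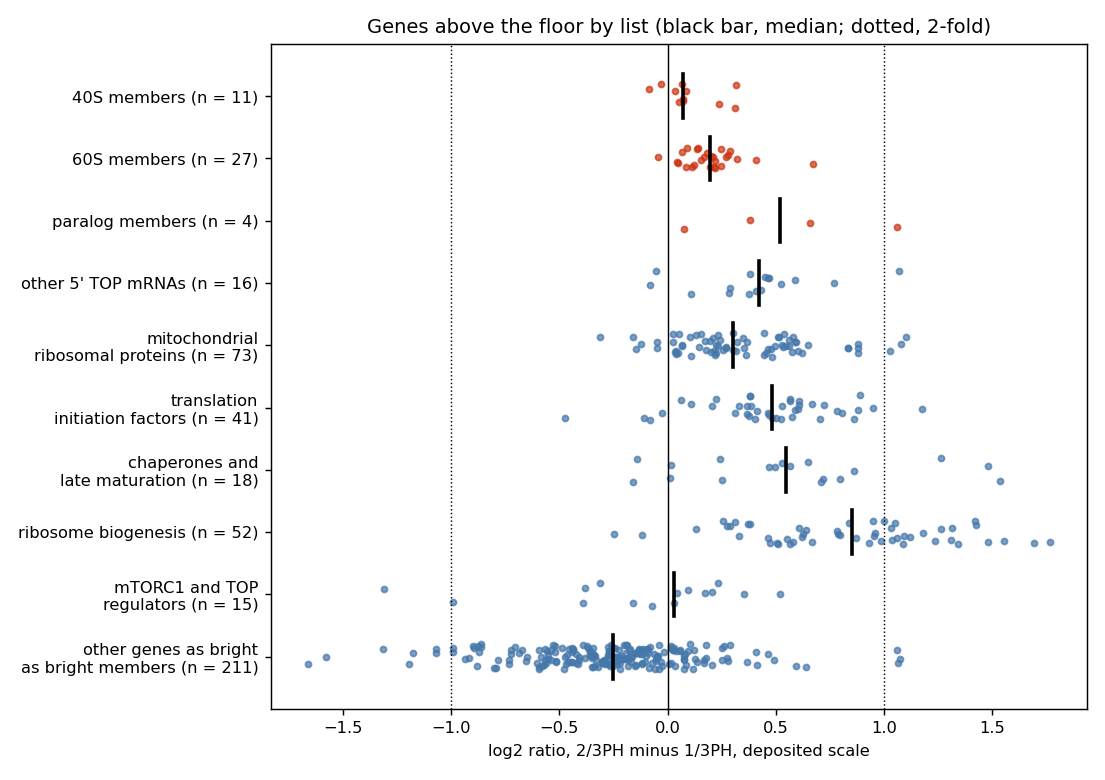
Log2 ratio (2/3PH minus 1/3PH, deposited scale) of each gene above the floor in the member families (red) and in comparison lists (blue), with medians as black bars and dotted lines at 2-fold. The core members sit in a narrow band with medians of 0.07 and 0.20, ribosome biogenesis genes centre on 0.85, and the 211 other genes as bright as the bright members centre on -0.25.

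Marker lists of other cells differed between the arrays as well. All 9 cell division markers were at least 2-fold higher, and the summed signal of these markers was 7758 after 1/3PH and 33331 after 2/3PH. All 11 macrophage markers were lower, with summed signals of 19870 and 13037, as were all 8 endothelial markers, with 12311 and 7969, and all 5 neutrophil and erythroid markers above the floor, with 30257 and 14712 over the list's 6. With poly-A scaling 7 of the 11, 4 of the 8 and 5 of the 5 were still lower. Of 8 stellate and matrix markers 5 were lower, with a median log2 ratio of -0.76, 2 of 3 cholangiocyte markers were higher (median 0.23), and 2 of 8 matched lymphocyte markers reached the floor, 1 of them higher and 1 lower. Every cell type makes ribosomal proteins, and the part of these shifts in the members' ratios was not tested.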

How the data were processed

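Remnant liver RNA, pooled from 3 rats per group, was measured on 1 Affymetrix array per group. Per the labels' protocols, biotin-labelled cRNA was made with a 3' IVT Express kit and signals were computed with MAS 5.0 in GeneSpring 11.0. The deposited values are log2 signals of 31099 probe sets; the base was checked on the values, since as powers of 2 both arrays have a trimmed mean of 500. Detection calls were not used here. MAS 5.0 gives each array the same mean, so total RNA per cell cannot be read.

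Leaving out controls, the platform annotation gave 1 symbol to 20826 of 31042 probe sets, several to 436 and none to 9780. Each gene was represented by its brightest probe set. As floor served the median over probe sets of the mean of both arrays (log2 6.48). Counts use limits of 2-fold and 1.5-fold. No test was possible. Members and lists were chosen with earlier results of these data known. In full are given the 10 highest and 10 lowest members, the stalk, 5S and paralog genes, Rps6 and members past 2-fold, and of each other list up to 4 genes with the largest absolute ratio or those a count singles out. Larp1, Mtor, Bccip, Grwd1 and Eef1a1 were added after their values were seen. The counting was tested on simulated data. Alternatives were scalings, floors, 64 units added before the log, other choices of probe set, updated symbols, and paralogs left out. Python 3.11.15, pandas 2.3.3 and statsmodels 0.14.6 (lowess with a fraction of 0.3) were used.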

Additional observations from a re-analysis of the deposited data

How the results depend on the processing

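The members' median log2 ratio was above 0 under each alternative run, and no member was 2-fold lower under any of them. With poly-A scaling the median became 0.62 (0.51 for 40S and 0.64 for 60S genes). There 3 of 42 members were 2-fold higher, beside 1599 of all 9514 genes, and 23 members passed 1.5-fold in place of 3. Hybridisation control scaling and the dimmest probe set each left 5 past 1.5-fold. Without a floor, 4 of 47 members were 2-fold higher, beside 1662 of all 14217 genes. There 7 members passed 1.5-fold, and the SD of the ratios was 0.86, because weak probe sets entered. The share of all genes past 1.5-fold was not counted under these alternatives, so their 1.5-fold counts say nothing particular to the members. Leaving out the paralogs left 0 past 2-fold and 1 past 1.5-fold. A limit of 1.5-fold gave 3 higher members and one of 3-fold gave 0. Adding the 36 probe sets with several symbols, an alternative chosen after seeing the data, gave 68 of 78 above 0. With the dimmest probe set, the ratio of Ddx21 turned to -0.012 and that of Mrps27 to -1.56, and the cause was not tested. No paired analysis was possible because each group had 1 array. Precision is limited by the number of arrays, and differences of the size seen here cannot be told from differences between animals or between hybridisations.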

Other observations

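Many ribosomal protein genes were measured by probe sets that the platform assigns to several symbols, usually the gene with its copies or processed pseudogenes. There were 36 such probe sets with at least 1 symbol that fits the naming rule, and 33 of them were as bright as the brightest 10% of genes. They name no gene here, but their signals resembled those of the 37 bright members. Their median was 18366 after 1/3PH and 19408 after 2/3PH. Their log2 ratios ran from -0.08 to 0.59 with a median of 0.16, and 29 of the 36 were above 0. None was 2-fold higher or lower.

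The array also carries a control probe set for 5S ribosomal RNA, which is not polyadenylated. Its log2 signal was 7.94 after 1/3PH and 7.68 after 2/3PH, which differ by -0.27 as deposited. That difference was -0.32 with median centring, -0.03 when scaled to the hybridisation controls and 0.18 when scaled to the poly-A controls, so its sign depends on the scaling. The 3' minus 5' log2 signal of the control for beta-actin was 2.74 and 2.91 on the 1/3PH and 2/3PH arrays, and that for GAPDH 0.66 and 0.36.

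Genes linked to Diamond-Blackfan anaemia, an inherited failure of red cell formation caused by loss of single ribosomal protein genes, formed a list of 20. Of these, 11 were measured, with a median log2 ratio of 0.17, the same as over the 42 members above the floor, which include them. The ratio was above 0 in 9 of the 11, where 52.9% of all genes were above 0. None passed 2-fold, which says little where 6.12% of all genes passed it upwards and 3.68% downwards.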
